A study of Mus musculus and Homo sapiens
Mus musculus with 14 samples.

Results

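The genes described are the 9 that encode alpha1 subunits of the voltage-gated calcium channels of neurons, Cacna1a to Cacna1i, the large proteins that form the pore and sense voltage. They were chosen by gene symbol as a gene family, with earlier results of these data known, and all 9 are listed in both retinal tables, which together list 25357 genes. The tables count unique molecular identifiers (UMIs), each standing for 1 copied RNA molecule, from RNA that was reverse transcribed and tagged with DNA barcodes by light in chosen areas of fixed retinal cryosections. Every section came from a wild-type (WT) CD1 IGS mouse in the third postnatal week, without further treatment. In 4 sections of a single mouse, the outer nuclear layer (ONL, the cell bodies of rods and cones), the bipolar cell layer (BCL) and the ganglion cell layer (GCL) each received a barcode. In 5 further sections, sequenced in a separate run, amacrine cells stained for tyrosine hydroxylase (TH+, the dopaminergic amacrine cells, a few cells pooled per section) and unstained amacrine cells (TH-, a far larger pool) were barcoded. Libraries of a group are therefore sections, which is technical replication of the layers, and p-values measure the spread between sections and not between mice.

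Calcium channels of nerve cells fall into classes by their current. L-type channels (Cacna1c, Cacna1d and Cacna1f here) give long-lasting currents and serve the ribbon synapses of photoreceptors and bipolar cells, which release transmitter continuously; Cacna1f is mutated in a form of congenital stationary night blindness. P/Q-type (Cacna1a), N-type (Cacna1b) and R-type (Cacna1e) channels trigger release at conventional synapses of spiking neurons, and T-type channels (Cacna1g, Cacna1h and Cacna1i) open at low voltage and give brief currents near rest.

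A different member led in each layer. Cacna1f was the leading member of the ONL, Cacna1h of the BCL and Cacna1a of the GCL, in each case in all 4 sections when levels were expressed per kilobase of exon length. Of the UMIs of the 9 genes, the L-type share was 73.1% ± 5.94 (SD, n = 4) for the ONL, 28.8% ± 3.58 for the BCL and 15.5% ± 2.25 for the GCL. For the T-type genes the BCL share was 62.2% ± 2.76, the ONL share 17.5% ± 4.10 and the GCL share 36.9% ± 2.03. The P/Q-, N- and R-type genes took 47.6% ± 2.77 of GCL family UMIs but 9.46% ± 2.53 and 9.02% ± 1.70 of those from the ONL and BCL. The L-type share of the ONL was mostly Cacna1f, at 68.2% ± 6.05 of the family UMIs, and genes of 1 class did not share 1 layer pattern, as given gene by gene below. In the ONL the class shares did not overlap with those of the GCL in any class. The whole family was also scarcer in the ONL, at a sum of 642 ± 95.2 CPM (UMIs scaled to a library total of 1000000) over the 9 genes, than in the BCL at 1549 ± 69.1 CPM and the GCL at 1461 ± 24.6 CPM. Among the amacrine libraries, L-type genes held 24.6% ± 1.48 (n = 5) in TH+ and 20.5% ± 2.496 in TH- cells, P/Q-, N- and R-type genes 40.1% ± 5.88 and 31.5% ± 1.74, and T-type genes 35.3% ± 6.65 and 48.0% ± 2.46. These class shares are not corrected for exon length. Per kilobase, the TH+ order reversed, with T-type genes at 41.4% ± 6.98 and P/Q-, N- and R-type genes at 36.7% ± 5.50. In the GCL these classes held 42.2% ± 1.925 and 46.3% ± 3.16 per kilobase. The leading class was the same per kilobase in every group except TH+.

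**Figure D1:**
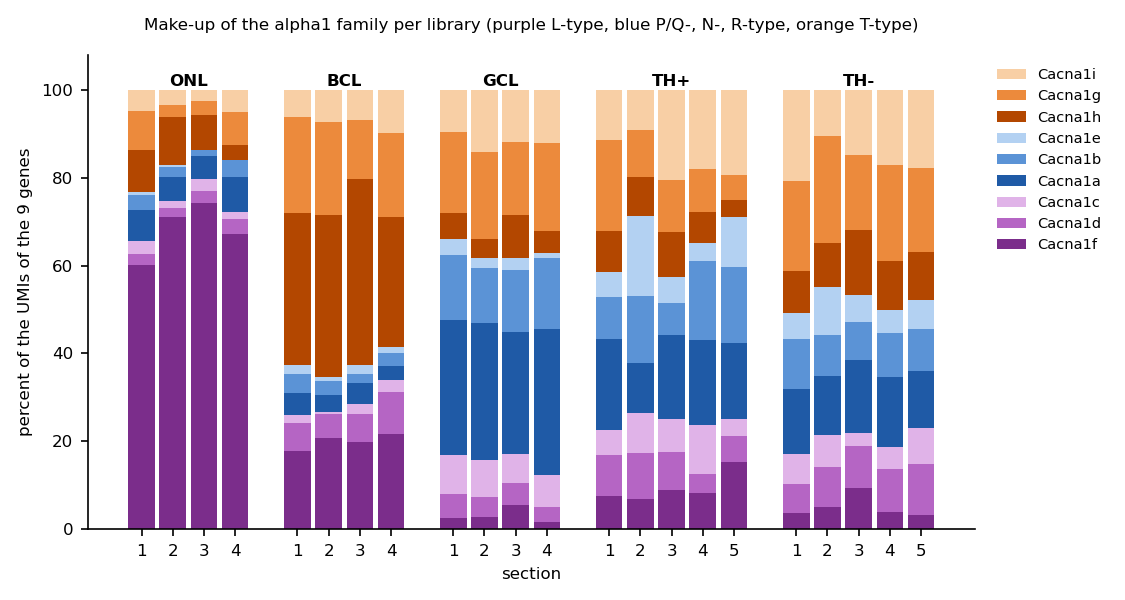
Each bar is 1 library and shows the percent of the UMIs of the 9 alpha1 genes that each gene held, grouped by layer or amacrine group and by section (x axis). Cacna1f (dark purple) took between 60.2% and 74.2% of the ONL bars, Cacna1h (dark orange) between 29.6% and 42.3% of the BCL bars and Cacna1a (dark blue) between 27.6% and 33.3% of the GCL bars.

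Libraries held 310228 to 801105 UMIs in the ONL, 193869 to 208437 in the BCL, 585655 to 785013 in the GCL, 30317 to 87449 in TH+ and 134394 to 200344 in TH- cells, so that 1 UMI was worth most in the TH+ libraries. Marker lists were summed in each group. A list of 14 rod genes, all detected in every group, made up 8.55% ± 0.657 of ONL UMIs, 2.14% ± 0.472 of BCL UMIs, 0.858% ± 0.190 of GCL UMIs, 3.65% ± 1.13 in TH+ and 2.15% ± 0.681 in TH- libraries. Bipolar markers (12 genes) reached 0.866% ± 0.0594 in the BCL, where 8 Müller glia markers stood at 0.745% ± 0.0391, ganglion cell markers (10 genes) 0.515% ± 0.0224 in the GCL, and 5 dopaminergic markers 0.325% ± 0.101 in TH+ against 0.0187% ± 0.00504 in TH- libraries. Amacrine markers (9 genes) stood at 0.4662% ± 0.0783 in TH+ and 0.637% ± 0.127 in TH- libraries, against 0.0519% to 0.248% as the means of the layers. Müller glia markers were near the amacrine markers in the TH- libraries, at 0.571% ± 0.103. UMIs of the rod list were thus counted outside the ONL and those of Müller glia markers in the amacrine libraries. The lists were read only as sums, so not all rod-list UMIs need come from rods. The part of these markers in the values below was not tested. Each library pools cells, so that fewer cells carrying a gene and less of its RNA per cell cannot be told apart.

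The RefSeq table held a promoter for 6 of the 9 genes (Cacna1b, Cacna1c, Cacna1d, Cacna1e, Cacna1f and Cacna1i), and those of an ONL-led and a GCL-led member are shown because these genes had opposite layer patterns. The sequences are the 250 bases before the RefSeq start on build GRCm38.p6, for Cacna1f chrX:7606853-7607102 on the plus strand and for Cacna1b chr2:24763153-24763402 on the minus strand, with the letters GGGCGG (read on either strand, so also CCGCCC) in capitals.
Cacna1f: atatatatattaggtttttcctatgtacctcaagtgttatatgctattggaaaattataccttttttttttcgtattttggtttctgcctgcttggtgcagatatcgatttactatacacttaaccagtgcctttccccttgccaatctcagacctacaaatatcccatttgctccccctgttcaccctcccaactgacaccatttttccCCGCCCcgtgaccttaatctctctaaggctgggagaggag
Cacna1b: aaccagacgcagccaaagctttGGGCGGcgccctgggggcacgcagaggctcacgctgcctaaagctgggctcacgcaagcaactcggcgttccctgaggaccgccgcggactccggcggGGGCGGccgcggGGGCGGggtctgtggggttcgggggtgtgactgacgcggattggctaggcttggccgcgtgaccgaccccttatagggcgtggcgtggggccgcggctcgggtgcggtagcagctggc
The Cacna1f promoter was 41.6% G and C and held the motif 1 time, and the Cacna1b promoter was 72.0% G and C and held it 3 times. This difference did not follow the layer patterns over the other promoters listed. Cacna1c, also highest in the GCL among the layers, has 3 listed promoters at 51.6%, 82.8% and 50.4% G and C, which held the motif 0, 6 and 0 times. The 2 of Cacna1d, at 39.6% and 86.4%, held it 0 and 5 times, and those of Cacna1e (52.0%) and Cacna1i (62.4%) did not hold it. Over the 32851 promoters of the table the median was 52.4%, and 32.74% held the motif. The letters TAATCC on either strand, the core recognised by the photoreceptor factors of the OTX family, were in none of the 9 promoters listed for these 6 genes and in 6.25% of all promoters.

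Cacna1f (ENSMUSG00000031142, chrX:7473322-7501435 on GRCm39, plus strand), the pore subunit of photoreceptor terminals, was high in the ONL and the BCL and low in the GCL. In sections 1 to 4 the ONL held 462, 473, 420.0 and 384 CPM, from 370, 342, 184 and 119 UMIs. The BCL held 289, 331, 295 and 326 CPM and the GCL 38.2, 40.5, 79.9 and 23.9 CPM. No section of one layer reached the range of another. The ONL exceeded the BCL by 0.83 on the log2 scale (SE 0.15, 1.78-fold; edgeR quasi-likelihood test with Benjamini-Hochberg adjustment, adjusted p = 5.6e-06) and the GCL by 3.42 (SE 0.16, 10.7-fold, adjusted p = 3.4e-25), and the BCL exceeded the GCL by 2.59 (SE 0.20, 6.02-fold, adjusted p = 2.6e-16). Cacna1f was the 1 member of the 9 that was called higher in the ONL than in the BCL, as 18.5% of all 11324 genes tested were, and the 1 called higher than in the GCL, as 29.3% were.

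Cacna1f kept more of its ONL level in the BCL than rod markers did. As a percentage of the ONL of the same section, the BCL held 24.9% ± 4.18 of the rod marker level, 14.1% ± 1.20 of the level of 9 cone markers and 71.9% ± 9.44 of the Cacna1f level. The lowest section for Cacna1f, at 62.5%, lay above the highest for rod markers, at 31.0%. In the GCL the figures lay together, at 9.99% ± 1.75 for rod markers, 6.65% ± 2.72 for cone markers and 10.5% ± 5.76 for Cacna1f. These ratios are CPM of column totals and carry no test; scaled by the TMM factors of the test, the mean Cacna1f level was 281 CPM in the BCL and 494 CPM in the ONL.

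**Figure D2:**
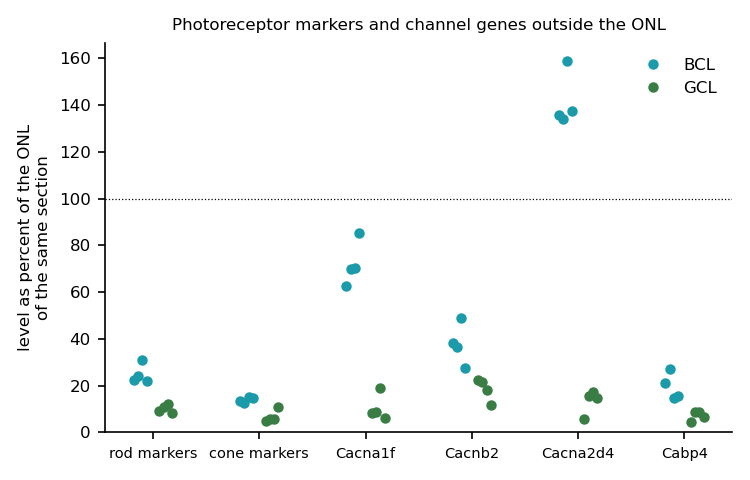
Points give the level in the BCL (blue-green) and the GCL (green) as a percentage of the ONL of the same section (y axis), 4 sections each, for the summed rod and cone markers and 4 channel-related genes; the dotted line marks equality with the ONL. In the BCL Cacna1f stood at 62.5% to 85.1% and Cacna2d4 at 134% to 159%, above the rod markers at 21.9% to 31.0%, and Cabp4 at 14.5% to 27.3% did not.

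The other L-type genes had other patterns. Cacna1d (ENSMUSG00000015968, chr14:29761896-30213412, minus strand), which carries low-threshold L-type current in sensory and pacemaker cells, was lowest in the ONL. The ONL held 13.8 to 19.97 CPM, the BCL 103, 86.4, 91.5 and 143 CPM and the GCL 76.4, 67.4, 69.2 and 49.5 CPM in sections 1 to 4. It was 4.84-fold higher in the BCL than in the ONL (log2 difference ONL minus BCL -2.27, SE 0.27, edgeR adjusted p = 6.2e-10) and 3.40-fold higher in the GCL than in the ONL (-1.77, SE 0.24, adjusted p = 6.7e-09). Its excess in the BCL over the GCL was small (0.51, SE 0.21, adjusted p = 0.0488) and rested on section 4: without it the difference was 0.19 with an adjusted p of 0.617, and leaving out each other section gave 0.0512 to 0.0635. In GENCODE vM39, not the vM27 annotation used for counting, 10.7% of the Cacna1d exon bases are shared with Chdh and a predicted gene. Cacna1c (ENSMUSG00000051331, chr6:118564201-119173851, minus strand), the main L-type subunit of heart, smooth muscle and brain, was highest of the layers in the GCL, at 131, 123, 96.8 and 109 CPM there against 9.67 to 21.2 CPM in the ONL and 4.80 to 39.6 CPM in the BCL. The GCL exceeded the ONL by 6.79-fold (edgeR adjusted p = 4.4e-15) and the BCL by 4.69-fold (adjusted p = 3.4e-09), and the ONL and BCL, which overlapped, were not called different (adjusted p = 0.355, with 34 and 22 UMIs in all). Amacrine libraries, from a separate run, averaged 111 ± 47.6 CPM in TH+ and 105 ± 38.6 in TH- cells.

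Of the genes of conventional synapses, Cacna1a and Cacna1b were highest in the GCL among the layers, and Cacna1e was not called different between BCL and GCL. Cacna1a (ENSMUSG00000034656, chr8:85065224-85367997, plus strand), the P/Q-type subunit, held 446, 462, 395 and 495 CPM in the GCL of sections 1 to 4, from 350, 308, 257 and 290 UMIs. The ONL held 54.9, 37.4, 29.7 and 45.1 CPM and the BCL 82.5, 62.4, 71.1 and 49.4 CPM. All GCL libraries lay far above those of the other layers. The GCL exceeded the ONL by 9.26-fold (log2 difference ONL minus GCL -3.21, SE 0.15, edgeR adjusted p = 1.5e-25) and the BCL by 7.60-fold (BCL minus GCL -2.93, SE 0.18, adjusted p = 4.9e-20). The ONL and the BCL overlapped and were not called different (-0.29, SE 0.26, adjusted p = 0.432), although each BCL lay above the ONL of its section. In GENCODE vM39, not the vM27 annotation used for counting, 6.79% of the Cacna1a exon bases are shared with predicted genes. Its exons cover 19106 bases there and 12310 in the lengths used here.

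Cacna1b (ENSMUSG00000004113, chr2:24493899-24653221, minus strand), the N-type subunit blocked by omega-conotoxin, followed at 217, 184, 204 and 239 CPM in the GCL, 67.1, 52.8, 30.5 and 44.5 CPM in the BCL and 26.2, 15.2, 6.85 and 22.6 CPM in the ONL. The layers stood in this order without overlap, with the GCL 10.05-fold above the ONL (adjusted p = 3.8e-21 in edgeR) and 4.84-fold above the BCL (adjusted p = 6.5e-13). The BCL exceeded the ONL by 2.07-fold (adjusted p = 0.0118), from 39 and 42 UMIs in all, and that call was lost without section 2 (adjusted p = 0.0791). Cacna1e (ENSMUSG00000004110, chr1:154266477-154760247, minus strand), the R-type subunit, had the lowest mean per kilobase in every layer, overlapping with Cacna1c in the BCL. The ONL gave 4, 2, 0 and 0 UMIs in sections 1 to 4, where a count of 0 allows up to 6.85 CPM in section 3 and 9.67 CPM in section 4, counting error only. The BCL held 36.1, 14.4, 30.5 and 19.8 CPM and the GCL 51.0, 33.0, 38.4 and 18.8 CPM. Both exceeded the ONL, by 6.96-fold (edgeR adjusted p = 0.00027) and 11.3-fold (adjusted p = 3.1e-09), and overlapped with each other (adjusted p = 0.149).

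The 3 T-type genes were each different. Cacna1h (ENSMUSG00000024112, chr17:25593259-25652764, minus strand) was highest in the BCL, at 562, 585, 625 and 445 CPM from 109, 122, 123 and 90 UMIs. The GCL held 87.9, 62.9, 140.0 and 75.1 CPM and the ONL 73.6, 71.9, 45.7 and 19.3 CPM. All BCL libraries lay far above every other library. The BCL exceeded the ONL by 7.38-fold (log2 difference ONL minus BCL -2.88, SE 0.19, edgeR adjusted p = 1.2e-18) and the GCL by 5.38-fold (2.43, SE 0.17, adjusted p = 1.8e-17). ONL and GCL overlapped and were not called different (-0.46, SE 0.21, adjusted p = 0.0617), whereas with the section as a replicate block they were (-0.47, SE 0.19, adjusted p = 0.0322). In all, 7 alternatives called the gene higher in the GCL, among them the omission of section 1 (-0.67, adjusted p = 0.0239) and of section 2 (-0.77, adjusted p = 0.0059).

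Cacna1g (ENSMUSG00000020866, chr11:94299217-94365230, minus strand), the T-type gene of thalamic relay and cerebellar neurons, was high both in the BCL, at 356, 336, 198 and 287 CPM, and in the GCL, at 265, 294, 238 and 299 CPM. These overlapped and the difference was -0.06 on the log2 scale (SE 0.17, edgeR adjusted p = 0.81). The ONL held 68.7, 19.4, 18.3 and 41.9 CPM, below both, by 5.91-fold (adjusted p = 5.6e-14) and 6.17-fold (adjusted p = 3.0e-17). Cacna1i (ENSMUSG00000022416, chr15:80171436-80282482, plus strand), the most neuron-restricted T-type gene, rose from the ONL at 13.7 to 36.2 CPM through the BCL at 98.0, 115, 102 and 148 CPM to the GCL at 140.1, 207, 169 and 178 CPM. The GCL exceeded the BCL by 1.67-fold (edgeR adjusted p = 0.00087) with an overlap of the ranges, although the GCL was higher in 4 of 4 sections, and the BCL exceeded the ONL by 3.47-fold (adjusted p = 7.1e-08).

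**Figure D3:**
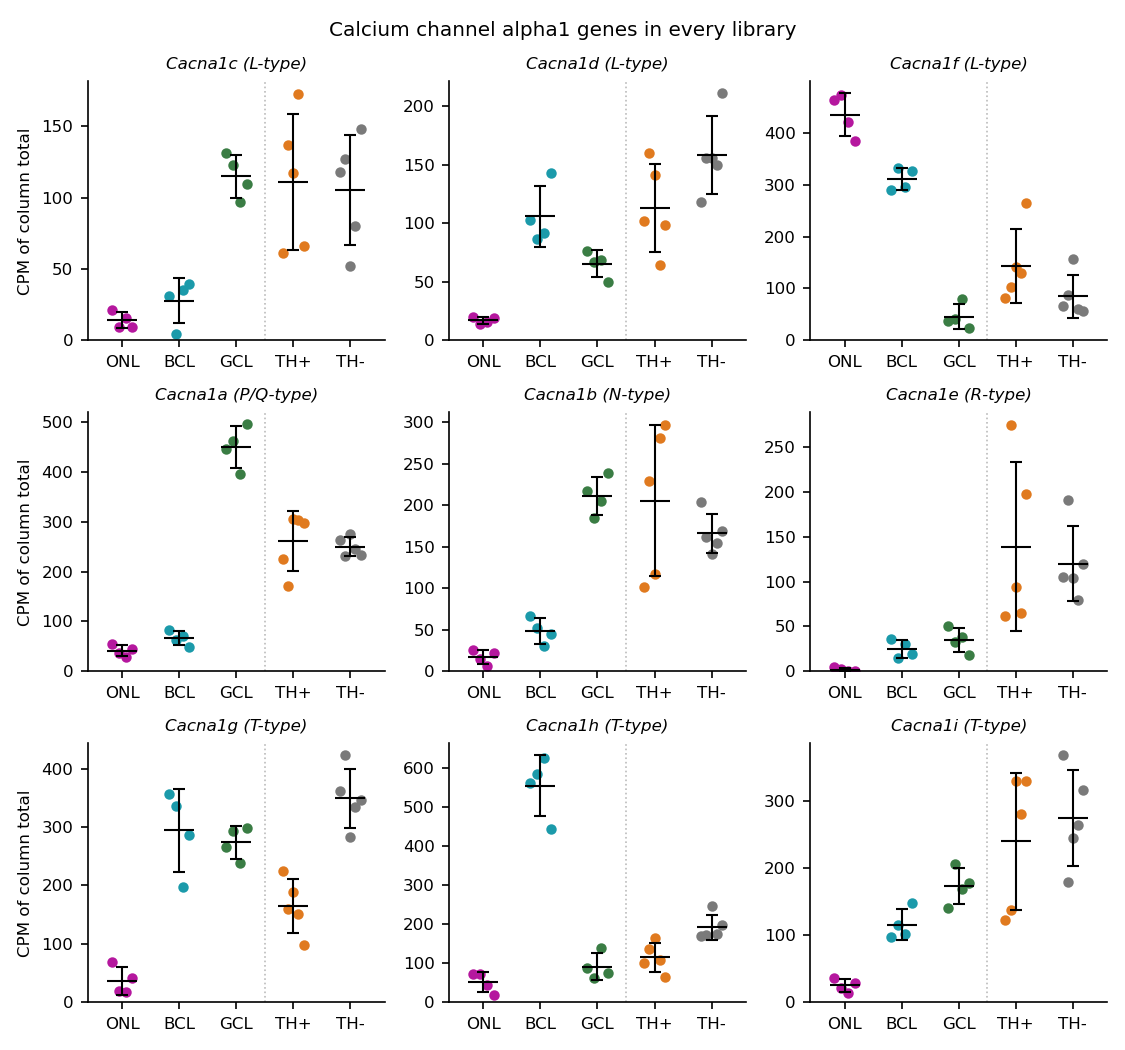
Each panel plots 1 gene in CPM of the column total (y axis, from 0) for the 5 groups (x axis), with 1 point per section, the mean as a bar and the SD as whiskers (4 sections per layer, 5 per amacrine group; the dotted line divides the separate runs). Cacna1f falls from the ONL to the GCL, Cacna1h peaks in the BCL, and Cacna1a, Cacna1b and Cacna1c lie higher in the GCL than in the other layers without overlap, while for Cacna1b and Cacna1c the amacrine points reach into the GCL range.

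Counted over the family, ONL against BCL gave 1 member higher in the ONL, 6 higher in the BCL and 2 not called. Of all genes tested 36.7% were called in that comparison, and 18.2% were higher in the BCL. ONL against GCL gave 1 member higher in the ONL, 7 higher in the GCL and 1 not called, where 61.5% of all genes were called, 29.3% and 32.2% in the 2 directions. BCL against GCL gave 3 members higher in the BCL (Cacna1d, Cacna1f and Cacna1h), 4 higher in the GCL (Cacna1a, Cacna1b, Cacna1c and Cacna1i) and 2 not called, where 36.5% of all genes were called, 16.1% and 20.4%. Cacna1d was not called in 7 of the 11 alternatives, which left 2 members higher in the BCL: DESeq2 (adjusted p = 0.0769), no low-count filter (0.254), no mitochondrially encoded genes (0.063) and each omission of a section. The median log2 difference of the 9 genes was -1.79, -2.63 and -0.70 in these comparisons, and that of all genes tested 0.09, 0.00 and -0.02. CPM did not overlap between the layers for 7, 8 and 6 of the 9 members, and for 33.2%, 54.8% and 36.1% of all genes. The 3 comparisons share libraries and are not independent. Scaling to column totals alone moved the median of all genes by 0.34, 0.17 and 0.17 on the log2 scale, yet 1 and 6, 1 and 8, and 3 and 4 members were then called in the same directions, with Cacna1h added in ONL against GCL. Among all genes that scaling moved the share of calls higher in the ONL over the BCL from 50.5% to 29.3%, and of calls higher in the BCL over the GCL from 44.2% to 55.7%.

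**Figure D4:**
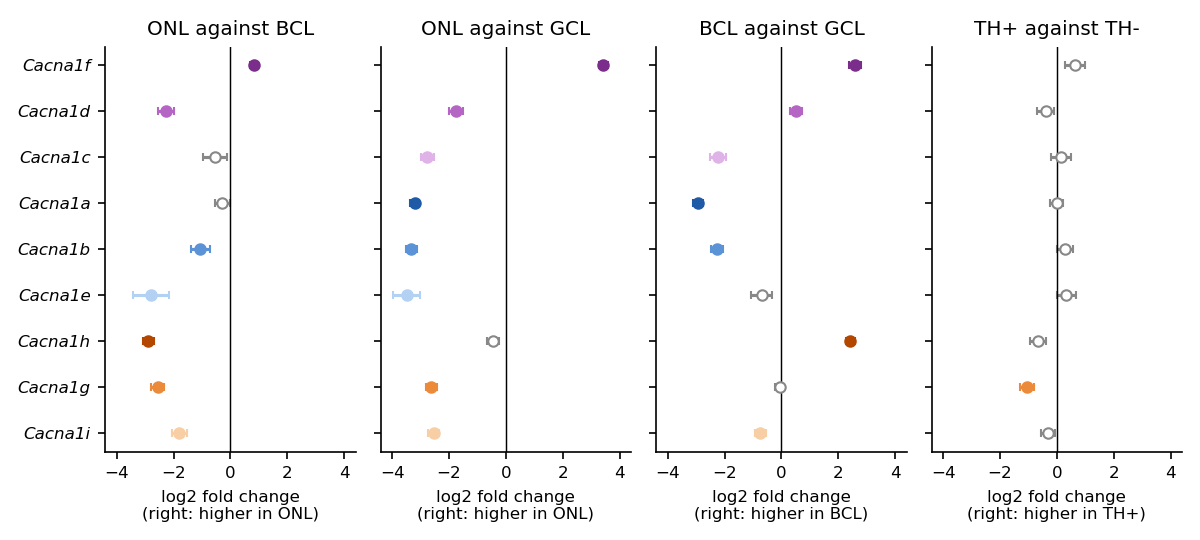
Log2 fold changes with SE (x axis) are shown for the 9 genes in the 4 comparisons, filled where the edgeR adjusted p is under 0.05 and open grey otherwise. Cacna1f alone lies to the right in both ONL panels, while in the BCL against GCL panel the genes lie on both sides and in the TH+ against TH- panel only Cacna1g is filled.

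Per kilobase of exon length, which allows genes to be compared with each other, the order in the ONL was Cacna1f at 47.8 ± 4.51 CPM per kilobase and then, without overlap, Cacna1h at 5.39 ± 2.63, Cacna1g at 3.65 ± 2.34 and Cacna1a at 3.39 ± 0.878, whose ranges overlapped. In the BCL it was Cacna1h at 56.8 ± 7.93, followed without overlap by Cacna1f at 34.1 ± 2.37 and Cacna1g at 29.0 ± 6.93, which did not separate, and then by Cacna1i at 11.7 ± 2.32. In the GCL it was Cacna1a at 36.5 ± 3.39, then without overlap Cacna1g at 27.0 ± 2.77, which overlapped with Cacna1b at 21.2 ± 2.30, and Cacna1i at 17.6 ± 2.78. The order thus had 1 leader in each layer. Cacna1g was second in all 4 GCL sections, whereas second place changed between sections in the ONL (Cacna1h in 3, Cacna1g in 1) and the BCL (Cacna1f in 3, Cacna1g in 1).

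The first place was less uniform in amacrine cells. In TH- libraries Cacna1g was first in 4 of 5 sections and Cacna1i in 1, and Cacna1g averaged 34.5 ± 4.97 CPM per kilobase (n = 5) and overlapped with Cacna1i at 27.9 ± 7.27. In TH+ libraries Cacna1i at 24.3 ± 10.4, Cacna1a at 21.1 ± 4.87, Cacna1b at 20.6 ± 9.14 and Cacna1g at 16.2 ± 4.59 all overlapped with their neighbours, and Cacna1i was first in 3 sections, Cacna1b in 1 and Cacna1g in 1. All 9 genes were detected in all 10 amacrine libraries, in TH+ libraries from 2 to 24 UMIs each.

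The 1 member of the 9 called between dopaminergic and other amacrine cells was Cacna1g. TH+ libraries held 225, 160.1, 188, 151 and 99.0 CPM in sections 1 to 5, from 11, 14, 8, 7 and 3 UMIs. TH- libraries held 362, 422, 283, 334 and 345 CPM, from 55, 73, 38, 67 and 49 UMIs. The groups did not overlap and TH+ was lower in 5 of 5 sections. The gene was 2.08-fold lower in TH+ cells (log2 difference -1.06, SE 0.24, edgeR adjusted p = 0.0105), with 1 of the 9 members called where 0.83% of all 6021 genes tested were, 0.747% as higher in TH+ and 0.083% as higher in TH- cells. With DESeq2 the adjusted p was 0.0577, and without section 2, 4 or 5 it was 0.0618, 0.0543 and 0.0737, so that the call did not hold there. Bipolar and Müller glia markers were also lower in TH+ libraries, at 0.117% ± 0.0418 against 0.192% ± 0.0976 and 0.383% ± 0.0606 against 0.571% ± 0.103 of UMIs, and their part in the difference was not tested.

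The other 8 genes were not called. Cacna1h was the other member whose groups did not overlap, at 66.0 to 165 CPM in TH+ and 171 to 246 CPM in TH- libraries, lower in 5 of 5 sections (log2 difference -0.66, SE 0.29, edgeR adjusted p = 0.445), where 2.28% of all genes did not overlap. Cacna1f held 81.7, 103, 141, 130 and 264 CPM in TH+ and 65.7, 86.8, 156, 59.9 and 56.4 CPM in TH- libraries (0.65, SE 0.36, adjusted p = 0.623), and rod markers were also higher in TH+ libraries, as given above, with a part in this difference that was not tested. Cacna1e was uneven in TH+ libraries, where section 2 alone gave 24 of the 40 UMIs. Its difference was 0.33 with all sections and -0.08 without section 2, with an adjusted p of 0.855 and 0.98. The differences of Cacna1a, Cacna1b, Cacna1c, Cacna1d and Cacna1i lay between -0.39 and 0.28, with SE of 0.23 to 0.34.

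Channels also need auxiliary subunits, the intracellular beta subunits (Cacnb genes) and the extracellular alpha2delta subunits (Cacna2d genes), and a list of 17 such genes was counted, which also held Cacna1s and the Cacng genes, most of which serve AMPA receptors. Cacng1 and Cacng6 were not in the tables analysed here, and 14 genes passed the filter in the layers. In ONL against BCL 1 was higher in the ONL, 8 in the BCL and 5 were not called, in ONL against GCL 2, 11 and 1, and in BCL against GCL 4, 8 and 2. Of all 11324 genes tested, 18.5% and 18.2% were called in the 2 directions of the first comparison, 29.3% and 32.2% of the second, and 16.1% and 20.4% of the third. Scaling to column totals alone gave 1, 11 and 2 in ONL against BCL, with Cacnb1, Cacnb4 and Cacna2d4 added to those higher in the BCL, and the same counts in the other comparisons. Without section 1, Cacnb1 was called higher in the BCL than in the ONL (adjusted p = 0.0322) and Cacna2d3 was not called between ONL and GCL (0.114). The ONL pair were Cacnb2 and Cacna2d4, both of which are needed for photoreceptor transmission. Cacnb2 averaged 571 ± 55.6 CPM (n = 4) over ONL, 214 ± 45.9 over BCL and 104 ± 19.6 over GCL libraries, 3.32-fold above the BCL (edgeR adjusted p = 2.5e-15) and 6.03-fold above the GCL (adjusted p = 1.0e-24). Cacna2d4 stood at 391 ± 36.4, 550.2 ± 29.9 and 51.6 ± 19.8 CPM. It was 8.71-fold higher in the ONL and 9.65-fold higher in the BCL than in the GCL (adjusted p = 8.1e-24 and 1.8e-22 in edgeR), and ONL and BCL were not called different (adjusted p = 0.432), although scaling to column totals alone called it higher in the BCL (adjusted p = 0.0022).

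The remaining tested genes of the list were higher in the BCL, the GCL or both than in the ONL. Cacna2d3 was highest in the BCL, at 153 ± 30.3 CPM against 14.1 ± 8.15 in the ONL and 27.5 ± 7.63 in the GCL, 9.89-fold and 4.89-fold higher (edgeR adjusted p = 1.7e-14 and 6.4e-12). In the GCL stood Cacnb3 at 165 ± 22.4 CPM, Cacnb4 at 140.4 ± 4.33 and Cacnb1 at 119 ± 15.3, each 7.13-fold to 9.47-fold above the ONL, and Cacna2d2 at 434 ± 21.6 CPM, 6.49-fold above the ONL. Cacna2d1, the alpha2delta subunit that binds gabapentin, rose from 21.3 ± 6.51 CPM in the ONL to 89.5 ± 17.4 in the BCL and 139 ± 18.3 in the GCL (edgeR adjusted p = 9.7e-07 for ONL against BCL and 0.00081 for BCL against GCL). The beta and alpha2delta genes thus led in different layers. Of the Cacng genes, Cacng5 was highest of the layers in the GCL, at 153 ± 11.05 CPM against 15.8 ± 6.95 in the ONL and 11.2 ± 6.17 in the BCL (edgeR adjusted p = 1.1e-18 and 2.6e-15). From ONL to BCL to GCL, Cacng4 averaged 38.4, 161 and 144 CPM and Cacng7 96.2, 277 and 273 CPM; both were higher in the BCL than in the ONL (adjusted p = 5.2e-09 and 4.5e-08) and not called between BCL and GCL. Cacng2 at 19.8, 58.9 and 127 CPM and Cacng3 at 18.2, 63.6 and 111 CPM were called in all 3 comparisons. Cacna1s, the alpha1 gene of skeletal muscle and outside the 9, gave 2, 6, 3 and 3 UMIs in the BCL, 2, 2, 0 and 0 in the ONL and 0, 0, 1 and 1 in the GCL. It was called higher in the BCL than in the ONL (edgeR adjusted p = 0.0018) and the GCL (adjusted p = 7.1e-05) on these low counts. None of the 13 subunit genes tested was called between TH+ and TH- cells by edgeR or DESeq2, where 1 had an unadjusted p under 0.05 in each. That gene was Cacna2d3, with 5 and 62 UMIs in all (edgeR adjusted p = 0.176), which with the section as a replicate block was 2.03 lower on the log2 scale in TH+ cells with an adjusted p of 0.0217. Section 1 gave 4 of the 5 TH+ UMIs, and without it the gene was 3.79 lower on the log2 scale with an adjusted p of 0.0178. Bipolar and Müller glia markers were also lower in TH+ libraries, as given above, and their part in this difference was not tested.

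A second list held 17 genes of the active zone and of calmodulin-like proteins that bind these channels. All 17 were tested in the layers, and 4 were higher in the ONL, 8 in the BCL and 5 not called in ONL against BCL, 4, 11 and 2 in ONL against GCL and 5, 9 and 3 in BCL against GCL. The shares of all genes called are those given above, 36.7%, 61.5% and 36.5% in the 3 comparisons in either direction. Scaling to column totals alone gave 2, 11 and 4 in ONL against BCL, where Erc2 and Unc13b were no longer called higher in the ONL and Pclo, Rims1 and Unc13a were called higher in the BCL (Unc13a also under 5 other alternatives), and 5, 8 and 4 in BCL against GCL, where Pclo was no longer called. In ONL against BCL, Erc2 was also not called with DESeq2 (adjusted p = 0.0698) or without section 3 or 4 (0.0641 and 0.141), nor was Rimbp2 without section 4 (0.103). In BCL against GCL, Cabp4 was not called without section 1 or 2 (0.0524 and 0.0685), and Erc2 was called without section 1 (0.0217). In ONL against GCL, Cabp2 was called without section 3 (0.0385), where both layers with all sections gave 5 UMIs. Cabp4, a calcium-binding partner of the Cacna1f channel in photoreceptors, averaged 173 ± 27.5 CPM over ONL, 33.5 ± 10.04 over BCL and 12.5 ± 5.30 over GCL libraries, 6.36-fold and 15.3-fold higher in the ONL (edgeR adjusted p = 1.2e-13 and 4.7e-23). Unlike Cacna1f, Cabp4 in the BCL was at 19.6% ± 5.86 of the ONL of the same section, near the rod markers. Its relative Cabp5, also in the bipolar marker list, stood at 560 ± 88.8 CPM in the BCL, 9.16-fold above the ONL and 30.01-fold above the GCL (edgeR adjusted p = 5.6e-23 and 2.1e-28). Cabp1 averaged 86.0 ± 10.05 CPM in the BCL and 60.5 ± 14.2 in the GCL against 8.22 ± 6.16 in the ONL (adjusted p = 7.6e-11 and 1.1e-11), and Cabp2 gave 19 UMIs in the BCL, 4 in the ONL and 1 in the GCL. Calm3, a calmodulin gene, stood at 282 ± 36.2, 585 ± 66.9 and 1466 ± 112 CPM in ONL, BCL and GCL, 4.596-fold higher in the GCL than the ONL (edgeR adjusted p = 2.4e-23) and 2.82-fold higher than the BCL (adjusted p = 1.3e-15). Stac2, an adaptor that binds L-type channels, was highest of the layers in the GCL, at 298 ± 37.8 CPM against 48.1 ± 15.5 in the ONL and 74.7 ± 10.8 in the BCL (edgeR adjusted p = 1.2e-19 and 3.6e-14), and stood at 298 ± 87.5 CPM in TH+ and 324 ± 92.0 in TH- libraries.

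Among the active zone genes, the members of the Rims pair and of the Unc13 pair differed in opposite directions between ONL and GCL, and the scaffold genes Bsn and Pclo did not. Rims2 was 1.96-fold higher in the ONL than the BCL and 3.05-fold higher than the GCL, at 414 ± 33.2, 264 ± 44.7 and 150.2 ± 21.1 CPM (edgeR adjusted p = 2.8e-08 and 2.0e-17), and Rims1 was 7.48-fold higher in the GCL than the ONL, at 499 ± 44.5 against 57.6 ± 16.9 CPM (adjusted p = 5.7e-24). Of the priming factors, Unc13b averaged 571 ± 69.0 CPM over ONL, 505 ± 46.3 over BCL and 77.6 ± 15.6 over GCL libraries, and Unc13a 58.2 ± 12.8, 106 ± 26.8 and 246 ± 15.1 CPM. Unc13b was 8.07-fold higher in the ONL than the GCL (edgeR adjusted p = 1.2e-26) and Unc13a 3.67-fold lower (adjusted p = 2.4e-16). The excess of Unc13b in the ONL over the BCL was 1.40-fold with overlapping ranges (adjusted p = 0.0008) and was not called with column totals alone (adjusted p = 0.346). Bsn averaged 272 ± 38.0 CPM over ONL, 562 ± 22.9 over BCL and 871 ± 16.5 over GCL libraries, 2.85-fold higher in the GCL than the ONL (edgeR adjusted p = 1.2e-17), and Pclo was 1.38-fold higher there (adjusted p = 0.00012). Erc1 was 6.32-fold higher in the GCL than the ONL (adjusted p = 1.5e-13), and Erc2 was not called between them (adjusted p = 0.411). None of the 15 genes tested was called between TH+ and TH- cells by edgeR, where 1 had an unadjusted p under 0.05 (Bsn, 0.042), or by DESeq2, where 0 had.

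**Figure D5:**
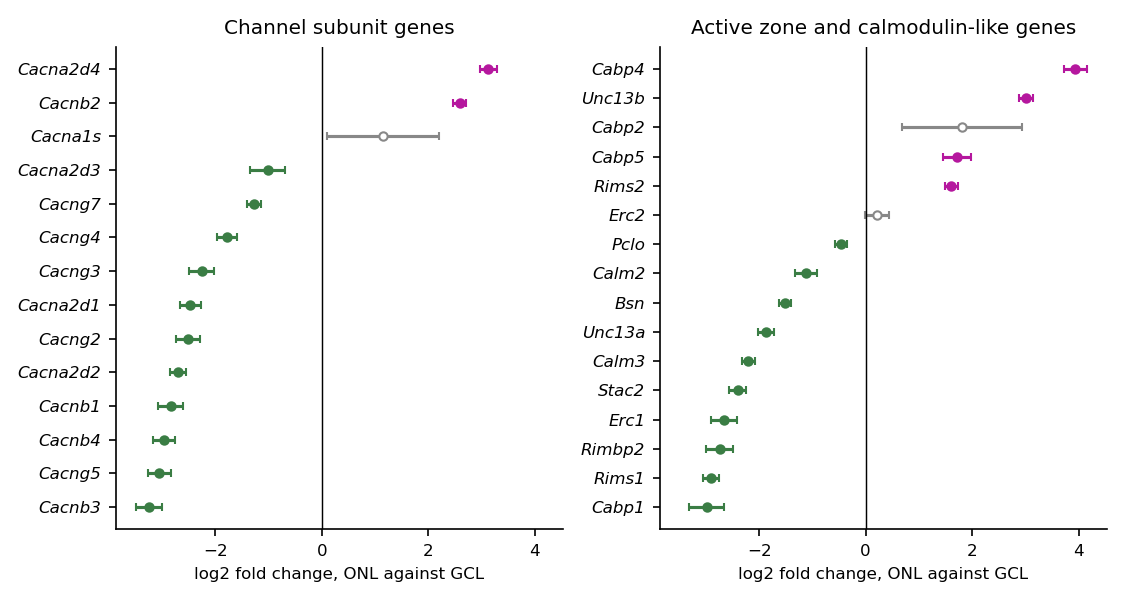
Log2 fold changes of ONL against GCL with SE (x axis) are shown for the tested genes of both lists except 1, magenta where higher in the ONL, green where higher in the GCL and open grey where not called. Cacna2d4 and Cacnb2 stand at 3.12 and 2.59, and Cabp4, Unc13b, Cabp5 and Rims2 between 1.61 and 3.94, while the other called genes lie below 0.

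By the correlation of log2 CPM over the 12 layer libraries, the tested gene most like Cacna1f was Ctbp2 (r = 0.988), which encodes the ribbon protein RIBEYE, followed by Ndrg1 (0.986) and Lrba (0.986). For Cacna1a it was Ppfia4 (0.995), an active zone liprin, for Cacna1b Atp6v1g2 (0.992) and for Cacna1c Pip4k2b (0.981). For Cacna1d it was Sox4 (0.982), with Hcn4, a channel of pacemaker currents, at 0.973, and for Cacna1e Tmtc1 (0.967). The T-type genes were most like Timp2 (Cacna1g, 0.990), Lrrtm4 (Cacna1h, 0.971) and Eef1a2 (Cacna1i, 0.988). The 12 points share 3 layers and 4 sections, so that r mostly reflects the layer means and is given as a description.

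3T3 fibroblasts, a mouse line, were barcoded in 3 wells of the same series in a mixed culture with human HEK cells. Under the mouse barcode, Cacna1c gave 70 UMIs (128 ± 23.9 CPM, n = 3), Cacna1g 30 (56.2 ± 25.7 CPM), Cacna1i 7 and Cacna1a 5. These counts are not corrected for exon length and give no order between genes. The paper reports that a small part of the reads carried the other species' barcode, and their part in these counts was not tested. The other 5 genes, Cacna1f and Cacna1h among them, gave 0 UMIs in all 3 wells, which allows up to 5.55 CPM over the wells together, counting error only.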

How the data were processed

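UMI counts were analysed for the layers of 4 retinal sections (12 libraries), the amacrine cells of 5 sections (10 libraries) and 3T3 cells in 3 wells of a mixed culture with human HEK cells. The deposited counts are whole numbers without normalization: the authors extracted UMIs and barcodes with UMI-tools 1.1.1, mapped to GRCm39 with STAR 2.7.9a, kept reads with a single match that featureCounts placed in GENCODE vM27 exons, counted each UMI once in a gene and removed 2 ribosomal RNA genes. Genes whose exons overlap share reads that this counting leaves unassigned, and reads of a gene and its antisense partner cannot be told apart, since no use of strand is stated. Depth ran from 30317 to 801105 UMIs per library; intervals and limits for counts of 0 (3 counts) cover counting error only.

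CPM are the UMIs of a gene divided by the column total and scaled so that a library sums to 1000000. Levels per kilobase divide CPM by the exon length in the deposited tables. Tests were quasi-likelihood F-tests in edgeR 4.0.16 under R 4.3.3, TMM scaling, filterByExpr with a minimum count of 3 and total of 10, and Benjamini-Hochberg adjustment over all 11324 (layers) or 6021 (amacrine cells) genes at 0.05. SE is the log2 fold change divided by the square root of F. The procedure was also run on simulated counts. The changed genes there lay above the median level and sections had no effect, so low counts and paired sections were not covered. Sections pair the libraries, which are cut from the same tissue section. The residuals of libraries of 1 section correlated at 0.0116 to 0.0493 in the layers and 0.0287 to 0.2565 in the amacrine cells. For libraries of different sections they correlated at -0.0609 to 0.0431 and -0.117 to 0.0418. Of the same-section amacrine pairs 2 of 5 exceeded 0.1, and of the different-section pairs 0 of 20. The main test did not include this pairing. The blocked fit, DESeq2 1.42.0, other size factors, other filters, omission of mitochondrially encoded genes and omission of each section were alternatives; scaling to column totals alone was added after seeing the data. All 9 genes are described, and of the 2 lists the genes that were among the 8 called with the smallest adjusted p in any layer comparison, except 1 gene that is counted in its list but not reported here; Pclo and Erc2 were added after their values were seen, and Cacna1f, Cacnb2, Cacna2d4 and Cabp4 were likewise chosen for the ratios to the ONL. The members and lists were chosen with earlier results of these data known. Gene coordinates come from GENCODE vM39 on GRCm39, matched by Ensembl identifier, and promoters from RefSeq on GRCm38.p6. The pooled layer library and deeper mixed-culture run were not used.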

Additional observations from a re-analysis of the deposited data

How the results depend on the processing

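In the layers the number of members called stayed at 6 to 7 of 9 for ONL against BCL, 8 to 9 for ONL against GCL and 6 to 7 for BCL against GCL over all alternatives, omission of each section included. Between TH+ and TH- cells it was 1 with edgeR and 0 with DESeq2, and 0 to 1 when each section was left out. Pairing libraries by section (the replicate block) kept 7, 7 and 1 members called and raised ONL against GCL from 8 to 9 by adding Cacna1h; among the alpha1 genes it changed no other call. Of 405 log2 fold changes under alternatives, 375 kept direction and side of the threshold, 7 passed it, 12 fell below it and 11 changed sign. All 11 belonged to differences that were not called: Cacna1g in BCL against GCL (0.11 with column totals, and -0.1881 to 0.0085 over the omissions of 1 section), and in TH+ against TH- cells Cacna1a (0.0344 with DESeq2, 0.0275 with DESeq2-style size factors, 0.0493 with the default filter, and -0.1196 to 0.1339 over the omissions), Cacna1c (-0.0048 without the filter, and -0.1519 to 0.3783 over the omissions) and Cacna1e (-0.0831 to 0.4569 over the omissions, negative without section 2). The cause was not tested. The 7 that passed were all Cacna1h in ONL against GCL, and the 12 that fell below were Cacna1d in BCL against GCL (7), Cacna1g in TH+ against TH- (4) and Cacna1b in ONL against BCL (1). Depth limits the TH+ libraries most, where a member rested on 2 to 24 UMIs.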
